A study of Mus musculus with 23 samples.

Results

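This account follows the D cyclins, the kinases CDK4 and CDK6, the inhibitors that hold these kinases back and the retinoblastoma protein across mouse B cell lymphoma lines and spleens. The genes were chosen by name as Ccnd1, Ccnd2, Ccnd3, Cdk4, Cdk6, Cdkn1b, Cdkn2a, Cdkn2b, Cdkn2c and Rb1, and their probes were found through the RefSeq accession that the array files give each probe. Of these 10 genes, 9 matched a probe and all 9 were among the 13742 genes tested. Ccnd1 matched no probe and is not analysed here.

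RNA was hybridised to 23 one-colour Agilent whole mouse genome arrays that covered 22 samples. The first group was 9 B cell lymphoma lines, which grew in suspension culture and came from tumour-bearing spleens of Atm knockout mice. The second was 6 tumour-free spleens of Atm knockout mice, all female, and the third was 7 spleens of Atm wild-type mice, 4 male and 3 female. Every mouse, wild-type controls included, was labelled as a knockout of Cd3e, part of the CD3 complex on T cells, and the strain was C57BL/6 x 129. The product of Atm is a protein kinase of the DNA damage response. The labels give no sex for the lines, no ages, and no statement on whether a line is 1 clone. Because the lines are cultured cells and the spleens are whole organs, tumour and culture cannot be told apart in a comparison between them. The p-values measure the spread between lines or between spleens of a group.

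D cyclins bind CDK4 or CDK6 early in the cell cycle, and the complexes phosphorylate the retinoblastoma protein Rb1, which releases E2F transcription factors to switch on genes of S phase. Inhibitors of the Ink4 family (Cdkn2a, Cdkn2b, Cdkn2c) bind CDK4 and CDK6 directly, while Cdkn1b (p27) binds cyclin-CDK complexes and mainly inhibits CDK2. In mouse B cells, D cyclins couple antigen receptor and growth factor signals to division, and loss of the Ink4 and Arf products is a known step in lymphoma in mice and people.

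Levels are log2 intensity relative to the 75th percentile of the same array, which is set to 0, so they describe 1 probe across samples and do not rank different genes. Before the results, 3 lymphoma lines need a remark. Line 8 was measured on 2 arrays, 1 of which is titled a repeat, and the design text counts 10 lines. Over the 13742 genes the 2 arrays of line 8 differed by a root mean square of 1.03 on the log2 scale (r = 0.968), which ranked 9 of the 45 pairs of lymphoma arrays, so 8 pairs of arrays from different lines were closer. Arrays of lines 4 and 5 were the closest pair of all, at 0.71 (r = 0.985). Lines 4 and 5 shared a slide, as did the 2 arrays of line 8. The representative probes of 8 of the 9 genes differed between the 2 arrays of line 8 by more than the standard deviation (SD) over the lines. For Cdkn1b the repeat array was at -1.18 and the other at 0.88. For Cdkn2a they were at -1.50 and -3.35, and for Ccnd3 at 4.67 and 3.21. The 2 arrays were averaged. Without lines 5 and 8 the differences from knockout and from wild-type spleens were 2.26 and 2.45 for Ccnd2, 1.1 and 1.43 for Cdk4, 2.09 and 2.42 for Cdk6, 1.76 and 2.11 for Cdkn2c, and -0.26 and -0.23 for Cdkn1b. For Ccnd3, Cdkn2a, Cdkn2b and Rb1 such values stand beside their results.

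**Figure D1:**
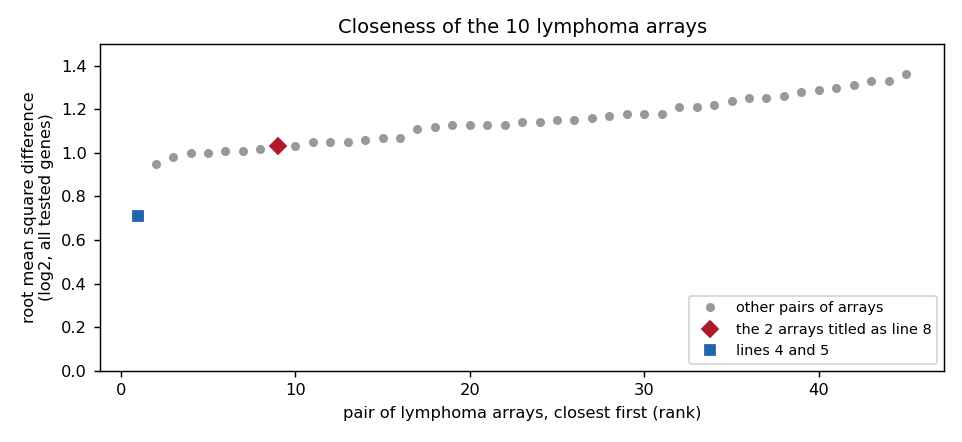
Each point is 1 of the 45 pairs of lymphoma arrays, ranked by closeness on the x axis, with the root mean square log2 difference over all tested genes on the y axis. Lines 4 and 5 are closest at 0.71, and the 2 arrays titled as line 8 are at rank 9, at 1.03.

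The labels were checked against marker genes. Atm averaged -3.33 ± 0.54 in the lymphoma lines, -2.39 ± 0.22 in knockout spleens and -0.19 ± 0.23 in wild-type spleens (SD, n = 9, 6 and 7). The Cd3e probe went against a plain reading of the label: it was well above background in all 22 samples, at -2.34 ± 0.65 in the lines, -4.21 ± 0.30 in knockout and -4.21 ± 0.24 in wild-type spleens, and was 1.87 ± 0.24 higher in the lines than in knockout spleens (limma adjusted p = 4.9e-07). Whether the probe lies in the deleted stretch was not established, and no sample with intact Cd3e was at hand to compare. The B cell genes Ms4a1 (CD20), Cd79b, Pax5 and Ebf1 were well above background on all arrays of the lines, while Fcer2a (CD23) was so in 1 of 9 lines. Markers of other spleen cells were lower in the lines than in knockout spleens for 12 of 12 neutrophil, 12 of 12 natural killer cell, 11 of 11 macrophage, 8 of 10 erythroid and 8 of 10 stromal genes tested, where 28.9% of all genes were lower and 41.6% higher. The stromal gene Cdh5 was higher, by 1.20 ± 0.27. For T cells 8 of 11 were lower and 2 were higher, Cd3g by 7.35 ± 0.78 and Cd3d by 2.11 ± 0.63, both partners of Cd3e. The mean level of the neutrophil list lay between -8.28 and -5.83 in the lines, between 1.45 and 4.42 in knockout spleens and between 1.15 and 4.80 in wild-type spleens. The erythroid list lay between -4.65 and -2.95 in the lines, 0.57 and 3.61 in knockout and 0.64 and 3.01 in wild-type spleens. The macrophage list lay between -6.29 and -4.60 in the lines, 1.82 and 2.74 in knockout and 2.05 and 2.95 in wild-type spleens. No line reached the level of a spleen on these lists. For natural killer cells the lines ranged over -7.90 to -5.50, with 0.91 to 1.66 in knockout and 1.54 to 1.94 in wild-type spleens. For T cells the lines ranged over -4.71 to -2.78, with -1.64 to -1.17 in knockout and -1.72 to -1.30 in wild-type spleens. For stromal cells the lines ranged over -6.74 to -5.61, with -3.38 to -2.82 in knockout and -3.28 to -2.58 in wild-type spleens. Well above background in none of the 9 lines were 3 T cell genes (Cd8a, Thy1, Trat1), 4 neutrophil genes (such as Csf3r and Lcn2), 5 natural killer genes (such as Gzmb and Eomes), 5 stromal genes (such as Dcn), 2 erythroid genes and 1 macrophage gene (Fcgr1). Well above background in all 9 lines were 5 T cell genes (Cd3d, Cd3g, Cd5, Lat, Lck), 4 macrophage genes (Adgre1, C1qb, Csf1r, Marco), 4 erythroid, 2 stromal, 1 neutrophil (Mpo) and 1 natural killer gene (Klrb1c). The part of these cells in the differences below was not tested, and in bulk RNA fewer cells of a type and less RNA per cell cannot be told apart.

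The lymphoma lines had more RNA of both measured D cyclins, of both kinases and of all 3 Ink4 genes than either group of spleens. Cdkn1b and Rb1 did not pass the test. For Ccnd3 the groups overlapped, and its call against wild-type spleens did not hold in every setting. Against knockout spleens 7 of the 9 genes were higher and 0 lower at a limma adjusted p under 0.05, and 6 had groups that did not overlap. Of all tested genes 41.6% were higher and 28.9% lower in that comparison, 70.5% in either direction, and 24.1% were higher without overlap. Against wild-type spleens the counts were again 7 higher, 0 lower and 6 without overlap, where 40.4% of all genes were higher and 30.8% lower, 71.3% in either direction, and 23.9% were higher without overlap. The median log2 difference of the 9 genes was 1.73 against knockout and 2.08 against wild-type spleens, and that of all genes was 0.18 and 0.14. Cdkn2a has the largest of the 9 differences and keeps that place at its lower bound, so the bound cannot move either median. Both comparisons share the lymphoma lines, so their values are set side by side and are not independent. The counts of higher genes and of groups without overlap include Cdkn2a, which met the filter for testing through the lines alone.

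**Figure D2:**
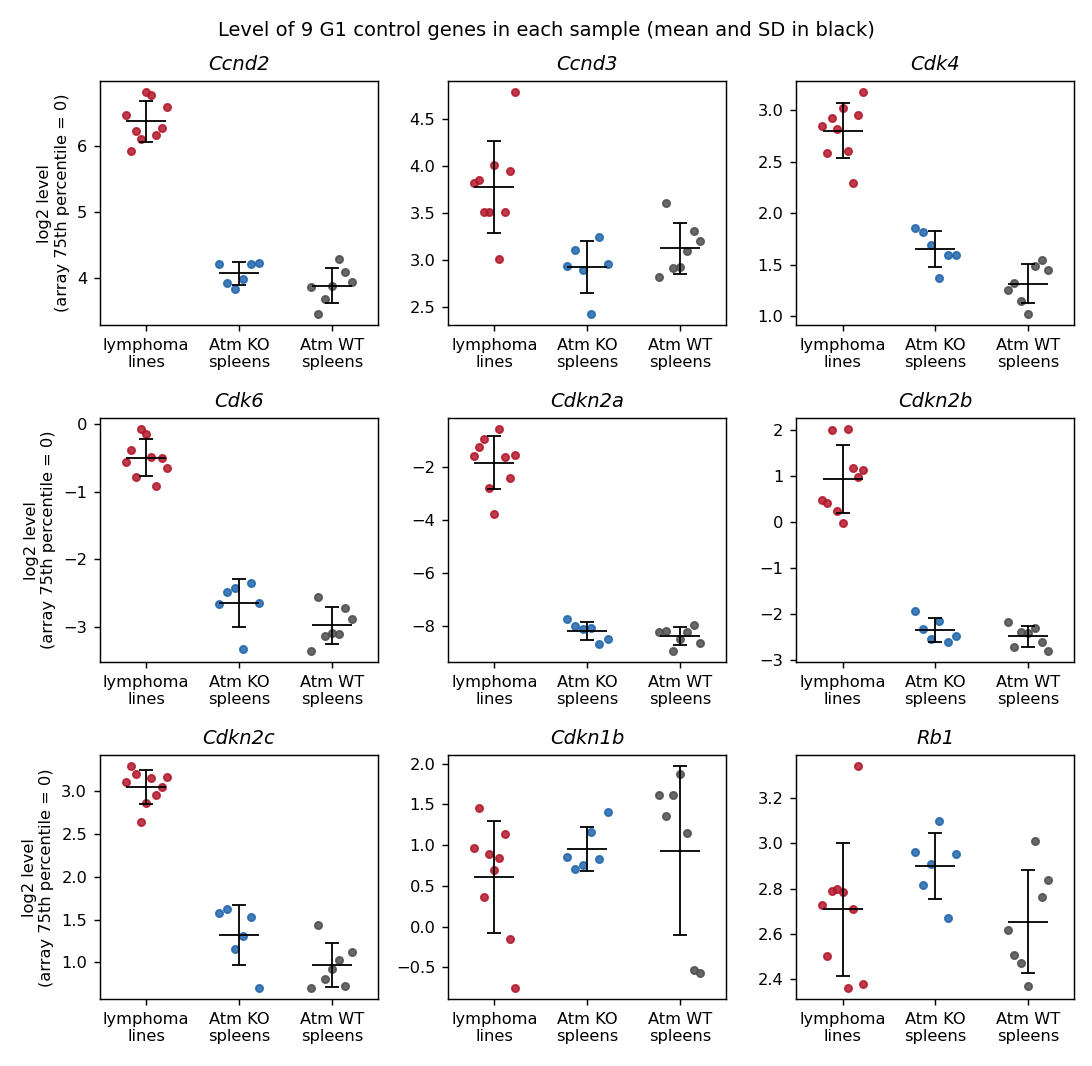
Each panel shows 1 gene, with the log2 level of each sample (0 is the 75th percentile of its array) in lymphoma lines, Atm knockout (KO) spleens and Atm wild-type (WT) spleens. Points are samples, black marks are the mean and SD. The lines lie above all spleens for Ccnd2, Cdk4, Cdk6, Cdkn2a, Cdkn2b and Cdkn2c, and the groups overlap for Ccnd3, Cdkn1b and Rb1.

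Ccnd2 (NM_009829) encodes cyclin D2, the D cyclin that mature B cells induce after antigen receptor signals. Its level lay between 5.92 and 6.82 in the 9 lymphoma lines, with a median of 6.28. It lay between 3.83 and 4.23 in the 6 knockout spleens (median 4.10) and between 3.45 and 4.28 in the 7 wild-type spleens (median 3.88). The lowest line thus stood above the highest spleen by more than the whole range within any group. Ccnd2 was 4.96-fold higher in the lines than in knockout spleens (log2 difference 2.31 ± 0.14 standard error, SE; limma adjusted p = 4.4e-12). Against wild-type spleens it was 5.64-fold higher (2.50 ± 0.14, limma adjusted p = 4.54e-13). All 3 probes of the gene moved alike, with log2 differences of 1.95 to 2.31 against knockout and 2.29 to 2.52 against wild-type spleens in a fit of all probes. Within the 5 slides that held lines and spleens, the difference lay between 2.04 and 2.56 against knockout and between 2.38 and 2.90 against wild-type spleens. Lines 7, 8 and 9 lay on a slide without spleens and enter no within-slide difference of any gene.

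Ccnd3 (NM_007632) encodes cyclin D3, which germinal centre B cells and B cell precursors depend on. Its level lay between 3.01 and 4.79 in the lines (median 3.82), between 2.42 and 3.24 in knockout spleens (median 2.95) and between 2.82 and 3.60 in wild-type spleens (median 3.09). Line 9 was the highest and line 6 the lowest. Lines 3, 4, 6 and 7 lay below the highest wild-type spleen, and line 6 also below the highest knockout spleen. Ccnd3 was 1.80-fold higher in the lines than in knockout spleens (0.85 ± 0.20, limma adjusted p = 0.000618) and 1.57-fold higher than in wild-type spleens (0.65 ± 0.19, limma adjusted p = 0.00394). Of the 7 called genes it had the smallest difference in both comparisons. Without lines 5 and 8 the differences were 0.79 (limma adjusted p = 0.00278) and 0.59 (limma adjusted p = 0.0147). Against wild-type spleens the call was lost with slide as a fixed block (0.44, limma adjusted p = 0.0576) and with quantile normalisation (0.28, limma adjusted p = 0.17). Within slides the difference lay between -0.23 and 1.09 against knockout spleens, positive on 4 of 5 slides, and between 0.09 and 0.86 against wild-type spleens.

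Over the 22 samples, each taken relative to its group mean, Ddx31 and Eif2b1 were among the genes that followed Ccnd2 most closely, with root mean square log2 differences of 0.151 and 0.157. The spread of Ccnd2 itself about its group means was 0.248. For Ccnd3, with a spread of 0.354, the closest were Tkt at 0.184 and Rgs10 and Paqr4 at 0.201 each. These are descriptions of likeness among the 13742 genes and carry no test.

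Cdk4 (NM_009870) encodes 1 of the 2 kinases that D cyclins activate. The probe lay between 2.29 and 3.18 in the lines (median 2.85), between 1.38 and 1.85 in knockout spleens (median 1.64) and between 1.02 and 1.55 in wild-type spleens (median 1.32). Line 7 was lowest among the lines and still above every spleen. Cdk4 was 2.22-fold higher in the lines than in knockout spleens (1.15 ± 0.12, limma adjusted p = 3.41e-08) and 2.80-fold higher than in wild-type spleens (1.49 ± 0.12, limma adjusted p = 2.32e-10). Within slides the differences lay between 0.83 and 1.55 and between 1.26 and 1.63. The RefSeq promoter of Cdk4 is shown because it holds 4 copies of CACGTG, the E-box that Myc proteins and related factors are known to bind. In the GRCm38.p6 assembly it is the plus strand of chr10:127063285-127063534, the 250 bases before the transcript start, with the E-boxes in capitals. Their first bases lie 172, 118, 98 and 11 bases before the start.
Cdk4 promoter: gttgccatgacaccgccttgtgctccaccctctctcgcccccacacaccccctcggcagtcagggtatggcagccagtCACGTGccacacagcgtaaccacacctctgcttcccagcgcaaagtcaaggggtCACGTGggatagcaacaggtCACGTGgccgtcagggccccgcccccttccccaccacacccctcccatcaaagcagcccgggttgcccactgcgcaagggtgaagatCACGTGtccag
CACGTG reads the same on both strands. Of the 32851 mouse RefSeq promoters searched over the same length, 6.02% held it at least 1 time, and 7 held it 4 times or more. The Cdk6 promoter held 1 copy, 220 bases before the start, and the listed promoters of Ccnd3, Cdkn1b, Cdkn2a, Cdkn2b and Cdkn2c held none. Such a match is a description of the letters and not of a bound site, and binding was not measured here. No promoter of Ccnd2 or Rb1 was among those used.

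Cdk6 (NM_009873) encodes the other kinase, which blood cells use widely. Its representative probe was between -0.91 and -0.08 in the lines (median -0.51), between -3.32 and -2.35 in knockout spleens (median -2.57) and between -3.36 and -2.56 in wild-type spleens (median -3.09). Every line stood above every spleen. Cdk6 was 4.41-fold higher in the lines than in knockout spleens (2.14 ± 0.16, limma adjusted p = 7.47e-11) and 5.54-fold higher than in wild-type spleens (2.47 ± 0.15, limma adjusted p = 2.59e-12). Its within-slide differences lay between 1.86 and 2.53 against knockout and between 2.17 and 2.66 against wild-type spleens. A second, dimmer probe of Cdk6 gave 1.79 ± 0.203 and 2.67 ± 0.195 in a fit of all probes (limma adjusted p = 8.63e-08 and 6.05e-11).

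Cdkn2a (NM_009877) encodes p16Ink4a, an inhibitor of CDK4 and CDK6, and from another first exon p19Arf, which stabilises p53 by restraining Mdm2. The array holds 1 probe for the gene, annotated with 1 of its 2 RefSeq transcripts, and where on the transcript it lies was not established, so the 2 products cannot be told apart. Its level lay between -3.77 and -0.59 in the lines, with a median of -1.60 and all 9 lines well above background. It was well above background on none of the 6 arrays of knockout spleens, which lay between -8.66 and -7.73 (median -8.08). The same held for the 7 wild-type spleens, which lay between -8.94 and -7.95 (median -8.23). Set against the lowest signal that was well above background, the level in the lines was at least 29.3-fold higher than in knockout spleens and at least 25.9-fold higher than in wild-type spleens. Cdkn2a met the filter for testing, 6 of 22 samples well above background, through the lines alone. Its p-values therefore lean on that filter and on background signal in the spleens. The fitted log2 differences were 6.33 ± 0.35 and 6.53 ± 0.33 (limma adjusted p = 6.32e-13 and 1.36e-13). After normexp background correction, which raises dim signals, they were 2.24 and 2.16. With the reported processing and without lines 5 and 8 they were 6.69 and 6.89. Within slides the differences lay between 5.21 and 8.07 and between 4.67 and 7.90.

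Cdkn2b (NM_007670) encodes p15Ink4b and is the neighbouring protein-coding gene of Cdkn2a in the RefSeq gene order. In the samples it lay between -0.02 and 2.01 in the lines (median 0.99), between -2.61 and -1.94 in knockout spleens (median -2.41) and between -2.81 and -2.17 in wild-type spleens (median -2.42). The lowest line, line 5, stood above every spleen. Cdkn2b was 9.69-fold higher in the lines than in knockout spleens (3.28 ± 0.26, limma adjusted p = 2.79e-10) and also higher than in wild-type spleens (3.42 ± 0.25, limma adjusted p = 5.55e-11). Without lines 5 and 8 the differences were 3.41 and 3.55. Within slides they lay between 2.42 and 4.62 and between 2.71 and 4.60.

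The promoters of the Cdkn2a and Cdkn2b locus are shown because these genes had the largest increases and E2F factors are known regulators of Arf in mice. All lie on the minus strand of chromosome 4 in GRCm38.p6 and are the 250 bases before a RefSeq start. The upstream start of Cdkn2a is at chr4:89294620-89294869, the downstream start at chr4:89282193-89282442, and that of Cdkn2b at chr4:89311033-89311282. Capitals mark the E2F letters TTTCCCGC, which were searched on both strands together with TTTGGCGC.
Cdkn2a upstream promoter: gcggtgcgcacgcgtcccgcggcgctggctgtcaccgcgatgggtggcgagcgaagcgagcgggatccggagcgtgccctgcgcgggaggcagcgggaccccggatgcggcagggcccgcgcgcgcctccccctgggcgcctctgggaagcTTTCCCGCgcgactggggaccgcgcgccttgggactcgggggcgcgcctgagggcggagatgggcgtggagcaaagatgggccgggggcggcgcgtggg
Cdkn2a downstream promoter: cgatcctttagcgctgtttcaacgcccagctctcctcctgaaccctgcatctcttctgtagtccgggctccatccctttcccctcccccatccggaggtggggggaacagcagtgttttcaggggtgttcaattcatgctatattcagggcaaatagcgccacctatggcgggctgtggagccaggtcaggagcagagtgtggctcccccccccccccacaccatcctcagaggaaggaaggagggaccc
Cdkn2b promoter: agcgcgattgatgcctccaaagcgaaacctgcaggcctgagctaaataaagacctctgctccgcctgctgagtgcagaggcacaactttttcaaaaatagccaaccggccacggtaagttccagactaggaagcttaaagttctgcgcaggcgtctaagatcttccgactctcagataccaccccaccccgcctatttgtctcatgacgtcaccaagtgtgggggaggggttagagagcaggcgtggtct
The upstream promoter of Cdkn2a held TTTCCCGC 1 time, with its first base 99 bases before the start, and the other 2 promoters held neither run of letters. Of the 32851 promoters 0.895% held TTTCCCGC, 0.417% held TTTGGCGC, and 1.3% held either. The 7 remaining promoters of Ccnd3, Cdk4, Cdk6, Cdkn1b and Cdkn2c held neither, which says only that these letters are not in these windows.

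Cdkn2c (NM_007671) encodes p18Ink4c, an inhibitor of CDK6 and CDK4 that B cells need to stop dividing on the way to plasma cells. Its level lay between 2.64 and 3.29 in the lines (median 3.11), the narrowest spread of the 9 genes in the lines (SD 0.198). It lay between 0.70 and 1.63 in knockout spleens (median 1.42) and between 0.71 and 1.43 in wild-type spleens (median 0.92). The 2 groups of spleens overlapped and all lines stood above both. Cdkn2c was 3.32-fold higher in the lines than in knockout spleens (1.73 ± 0.14, limma adjusted p = 4.66e-10) and 4.23-fold higher than in wild-type spleens (2.08 ± 0.14, limma adjusted p = 8.48e-12). Within slides the differences lay between 1.53 and 2.05 and between 1.85 and 2.24.

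Cdkn1b (NM_009875) encodes p27Kip1, which keeps resting lymphocytes out of the cell cycle. Its representative probe lay between -0.76 and 1.45 in the lines (median 0.84), between 0.71 and 1.41 in knockout spleens (median 0.84) and between -0.57 and 1.88 in wild-type spleens (median 1.35). The differences were -0.35 ± 0.38 against knockout and -0.33 ± 0.36 against wild-type spleens (limma adjusted p = 0.419 and 0.432). With median centring of the arrays they were 0.24 and 0.25. Within slides they lay between -0.80 and 0.72 and between -1.03 and 1.34. Lines 8 and 9 were the lowest lines, at -0.15 and -0.76, and the 2 arrays of line 8 differed by -2.07 on this probe (repeat minus other). A second probe of Cdkn1b gave -0.16 ± 0.331 and -0.24 ± 0.316 in a fit of all probes (limma adjusted p = 0.675 and 0.514). The 2 probes ordered the samples differently: wild-type spleens 6 and 7 were the lowest spleens on the representative probe, at -0.54 and -0.57, and the highest on the second, at -0.22 and -0.20.

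Rb1 (NM_009029) encodes the substrate of the D cyclin kinases and the brake on E2F. Its level lay between 2.36 and 3.34 in the lines (median 2.73), between 2.67 and 3.10 in knockout spleens (median 2.93) and between 2.37 and 3.01 in wild-type spleens (median 2.62). The 3 groups overlapped, and line 8 was the highest line. The differences were -0.19 ± 0.13 against knockout spleens (limma adjusted p = 0.196) and 0.06 ± 0.13 against wild-type spleens (limma adjusted p = 0.708). Both depended on scaling. Against knockout spleens Rb1 passed the test at 0.39 with median centring (limma adjusted p = 0.0219) and in the opposite direction at -0.49 with quantile normalisation (limma adjusted p = 0.00173). It also passed at -0.27 without line 8 and at -0.29 without lines 5 and 8 (limma adjusted p = 0.0355 and 0.0296), while the same settings gave -0.02 and -0.05 against wild-type spleens (limma adjusted p = 0.853 and 0.728). Against wild-type spleens it passed at 0.63 with median centring (limma adjusted p = 0.000476). A dim second probe was well above background in 4 of 9 lines and gave -0.60 ± 0.307 and -0.51 ± 0.294 (limma adjusted p = 0.0889 and 0.123).

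**Figure D3:**
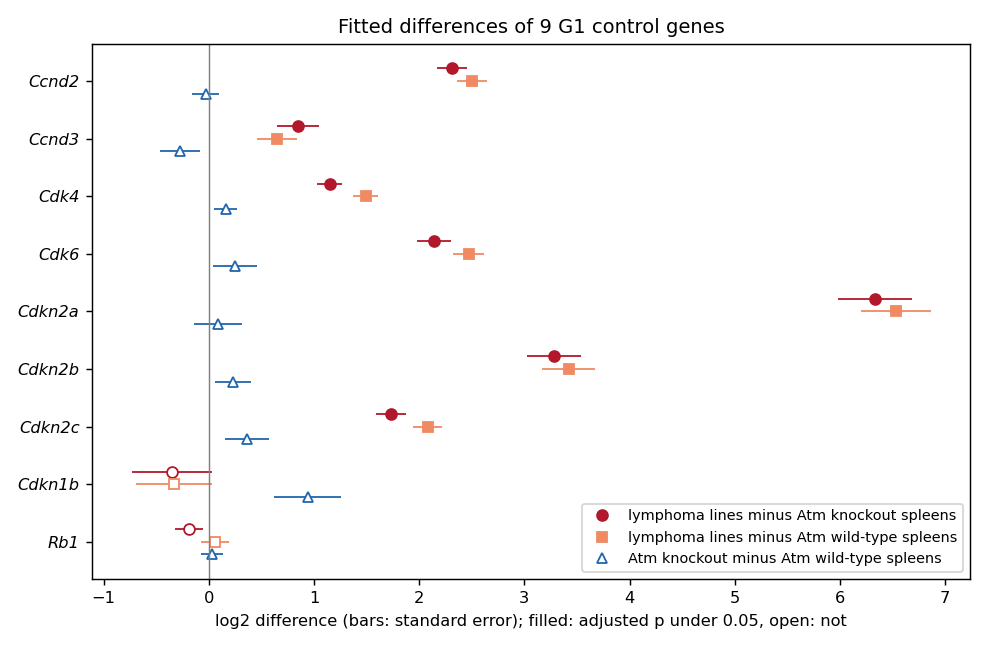
Fitted log2 differences (x axis) of 9 genes with standard errors as bars, for lymphoma lines minus knockout spleens (circles), lymphoma lines minus wild-type spleens (squares) and knockout minus wild-type spleens (triangles). Filled symbols had a limma adjusted p under 0.05. Differences against knockout spleens run as high as 6.33 for Cdkn2a, which is not well above background in the spleens and has a lower bound of 4.87, and every triangle is open.

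Knockout and wild-type spleens were compared to describe these genes by Atm genotype, apart from the lymphoma lines. All knockout spleens but only 3 wild-type spleens were female, so a gene that did not pass may still differ. None of the 9 passed the test between knockout and wild-type spleens (0 higher and 0 lower by limma with a term for sex), where 1.66% of all genes were higher and 2.16% lower, 3.82% in either direction. Their median difference was 0.16, and that of all genes was -0.05. The fitted differences were -0.03 ± 0.13 for Ccnd2, -0.27 ± 0.19 for Ccnd3 and 0.16 ± 0.11 for Cdk4 (limma adjusted p = 0.911, 0.447 and 0.44). The Ink4 genes Cdkn2b and Cdkn2c gave 0.23 ± 0.17 and 0.36 ± 0.21 (limma adjusted p = 0.474 and 0.363), and Rb1 gave 0.03 ± 0.10 (limma adjusted p = 0.901). Within the 5 slides and without regard to sex, knockout minus wild-type values lay between 0.14 and 0.43 for Ccnd2, 0.05 and 0.57 for Cdk4 and 0.15 and 0.45 for Rb1, above 0 on all 5 slides. For Ccnd3 they lay between -0.64 and 0.32 and were below 0 on 4 of 5. The plain means of knockout and wild-type spleens were 4.07 and 3.88 for Ccnd2, 1.66 and 1.32 for Cdk4 and 2.90 and 2.65 for Rb1. Cdkn2a was not well above background in either genotype and gets no fold. Of the natural killer cell markers 7 of 12 were lower in knockout spleens, 1 of 10 stromal markers was higher, and no marker of B cells, T cells, neutrophils, macrophages or erythroid cells passed the test; their part in these values was not tested.

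Cdk6 and Cdkn1b were less settled between the genotypes. The representative Cdk6 probe gave 0.25 ± 0.21 (limma adjusted p = 0.538), while its dim second probe gave 1.08 ± 0.253 (limma adjusted p = 0.0386 in a fit of all probes). On that probe the knockout spleens lay between -5.76 and -4.65, all 6 well above background, and the wild-type spleens between -6.82 and -5.89, 5 of 7 well above background, without overlap. Among all genes 2.26% were higher and 2.1% lower without overlap. Cdkn1b gave 0.94 ± 0.32 (limma adjusted p = 0.13) although the plain means of knockout and wild-type spleens were 0.95 and 0.93. With the term for sex, the fit compares the female knockout spleens with the 3 female wild-type spleens, of which 2 were the low spleens 6 and 7 and the third, spleen 5, was at 1.15. The male minus female difference of Cdkn1b was 1.60 ± 0.35 (limma adjusted p = 0.0633). Without wild-type spleen 5 the genotype difference was 1.51 (limma adjusted p = 0.00699). Over all 13 spleens the second probe of Cdkn1b gave -0.01 ± 0.209 (limma adjusted p = 0.982).

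Within the lymphoma lines the 9 genes varied by different amounts. The SD over lines was 0.988 for Cdkn2a, 0.731 for Cdkn2b and 0.687 for Cdkn1b, and 0.31 or less for Ccnd2, Rb1, Cdk6, Cdk4 and Cdkn2c. Lines 6 and 3 had the highest Cdkn2a, at -0.59 and -0.97, and also the highest Cdkn2b, at 2.01 and 2.00. Lines 5 and 4 had the lowest of both, at -3.77 and -2.78 for Cdkn2a and at -0.02 and 0.23 for Cdkn2b. Lines 4 and 5 are the pair of arrays that were closest over all genes. They also shared a slide, so for their likeness line and slide cannot be told apart. Line 9 had the highest Ccnd3 and Cdk4, at 4.79 and 3.18, and the lowest Cdkn1b on the representative probe, at -0.76. The repeat array of line 8 alone was lower on that probe, at -1.18. On the second Cdkn1b probe line 8 was lowest, at -2.21, with line 9 at -1.57.

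Each of the 36 pairs of genes was compared over the 9 lines by exact two-sided permutation tests, and 0 pairs passed after Benjamini-Hochberg adjustment, while 4 pairs had an unadjusted p under 0.05 by Pearson's r and 4 by Spearman's rho. Cdkn2a and Cdkn2b had r = 0.77 (exact permutation p = 0.0153, adjusted p = 0.258) and rho = 0.75 (exact permutation p = 0.0255, adjusted p = 0.306). Without the 2 lines farthest from the median of Cdkn2a, r was 0.56. Cdk4 and Cdkn1b had r = -0.75 and rho = -0.87 (exact permutation p = 0.0192 and 0.00451, adjusted p = 0.258 and 0.109), with r = -0.67 without the 2 farthest lines. All pairs used representative probes, and the second Cdkn1b probe, which ordered the lines differently, was not compared with Cdk4. Line 7, lowest in Cdk4, was at 1.14 on the representative Cdkn1b probe and at -1.14 on the second. Lines 8 and 9 were the lowest lines on both Cdkn1b probes. Cdkn2a and Cdkn2c had r = 0.74 and rho = 0.85 (exact permutation p = 0.0215 and 0.00607, adjusted p = 0.258 and 0.109), with r = 0.51 without the 2 farthest lines. With the unmarked array of line 8 alone, Cdkn2a and Cdkn2c had r = 0.45 and rho = 0.47 (exact permutation p = 0.225 and 0.213). The count of 0 pairs held with the unmarked array of line 8 alone, without line 8, and without lines 5 and 8. No slide held enough lines to repeat these relations within it.

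**Figure D4:**
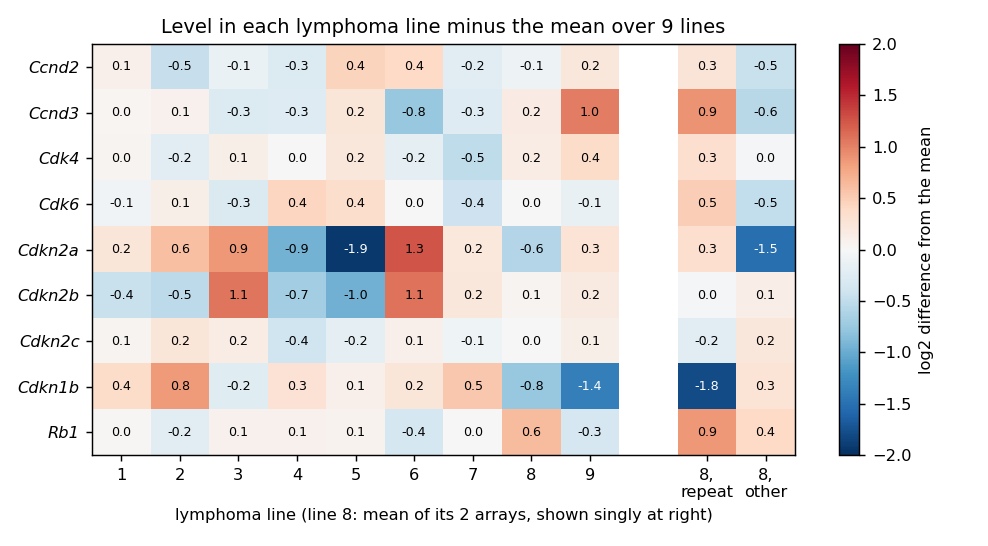
Rows are 9 genes and columns are the 9 lymphoma lines, with the 2 arrays of line 8 shown singly at the right; numbers and colours give the log2 level minus the mean over lines. Cdkn2a spans from -1.9 in line 5 to 1.3 in line 6, and the 2 arrays of line 8 differ most for Cdkn1b, Cdkn2a and Ccnd3.

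The surrounding pathway was described by 6 further lists with 69 tested genes. Against knockout spleens 46 were higher in the lines and 9 lower, where 41.6% and 28.9% of all genes were. Among cyclins, kinases and activators of the G1 to S step, 6 of 8 were higher and 0 lower (median 0.94). They include Ccna2 (cyclin A2, which acts in S phase) at 1.83 ± 0.30 and Mnat1 and Ccnh at 1.59 ± 0.12 and 1.31 ± 0.07, both parts of the CDK-activating kinase. Of the remaining CDK inhibitors Cdkn1a (p21), a p53 target, rose by 2.48 ± 0.23 (limma adjusted p = 4.02e-09). Cdkn2d (p19Ink4d) was at 0.50 ± 0.16 and Cdkn1c (p57), well above background in 7 of 9 lines, at -1.70 ± 0.52. Both calls were lost with quantile normalisation, at 0.12 and -1.22 (limma adjusted p = 0.497 and 0.0562).

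Downstream of the D cyclin kinases, 9 of 12 pocket proteins, E2Fs and partners were higher in the lines and 0 lower (median 1.03). Of all genes 41.6% were higher and 28.9% lower. The largest in this list were E2f6, an E2F that represses, at 1.85 ± 0.16, Tfdp1, the dimer partner of E2Fs, at 1.82 ± 0.22, and E2f1, an activating E2F, at 1.75 ± 0.19. All 18 tested E2F target genes of S phase entry were higher against knockout spleens (median 1.54), 14 of them without overlap, and all 18 against wild-type spleens (median 2.14). Cdc45, a replication helicase factor, rose by 2.02 ± 0.32, and Uhrf1, which maintains DNA methylation, by 1.80 ± 0.26. Over 11 alternatives the count of higher E2F targets against knockout spleens was 17 to 18, with 1 gene lost under quantile normalisation and 1 with the mean of all probes. The gene lost with quantile normalisation was Pcna, the replication clamp, at 0.30 (limma adjusted p = 0.0885), against 0.81 ± 0.15 as reported.

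Of the genes of protein turnover in this pathway 5 of 11 were higher and 1 lower (median 0.25), a share of higher genes near the 41.6% of all genes. Cks1b, a cofactor of the ligase that degrades Cdkn1b, rose by 2.14 ± 0.19, and Cops5, a COP9 signalosome subunit, and Ddb1, an adaptor of CUL4 ligases, by 1.34 ± 0.12 and 1.13 ± 0.15. Cul4a fell by 0.55 (SE 0.13), but was at 0.04 with median centring (limma adjusted p = 0.837). With median centring 10 of these 11 genes were higher.

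Upstream of the Ink4, Arf and Cdkn1b genes, 6 of 17 were higher and 7 lower (median -0.20), where 41.6% and 28.9% of all genes were. Median centring turned the median of this list to 0.39. Ezh2, the methyltransferase of Polycomb complex PRC2, a known repressor of the Cdkn2a locus, was among those that rose, by 3.28 ± 0.20 (limma adjusted p = 4.05e-12). Suz12, another PRC2 subunit, rose by 1.25 ± 0.07 and Mdm2, the p53 ligase that p19Arf restrains, by 0.95 ± 0.11. Further Polycomb genes of this list, given here outside the rule for named genes, moved both ways. Bmi1 and Cbx7 were lower, at -0.73 ± 0.13 and -1.24 ± 0.17. Eed and Ring1 were higher, at 0.62 ± 0.13 and 0.45 ± 0.13, and Rnf2 did not pass, at 0.19 ± 0.15. Id1, an inhibitor of E proteins, fell by 2.01 (SE 0.53), and Kdm6b, a demethylase that opposes PRC2, by 1.73 (SE 0.21). Foxo3, an activator of Cdkn1b, was at -1.34 ± 0.31 but well above background in 3 of 9 lines, and was at -0.05 after normexp correction (limma adjusted p = 0.647). Between knockout and wild-type spleens 3 of the 69 genes were higher and 0 lower, where 1.66% and 2.16% of all genes were. They were Kdm6b at 1.07 ± 0.12, Ets2 at 0.76 ± 0.17 and Pcna at 0.45 ± 0.11 (limma adjusted p = 0.00116, 0.0275 and 0.0482), of which only Kdm6b passed under all 23 alternatives. Without the sex term 10 of the 18 E2F targets were higher in knockout spleens, against 1 as reported, and 739 of all 13742 genes were higher, against 228.

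**Figure D5:**
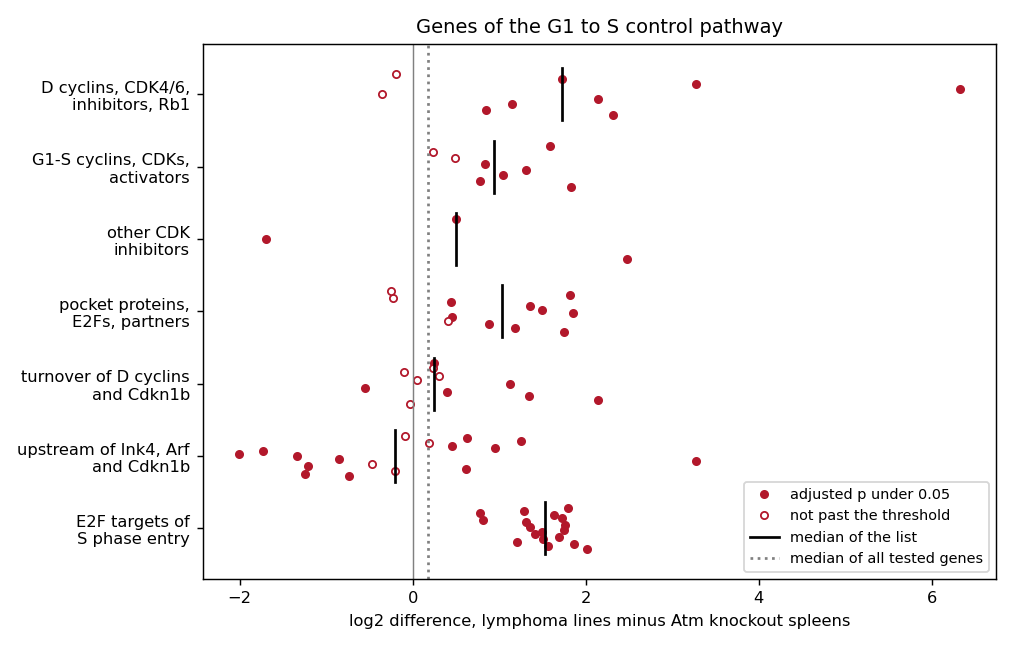
Log2 difference of lymphoma lines minus Atm knockout spleens (x axis) for each tested gene of 7 lists (rows), filled where the limma adjusted p was under 0.05. Black bars are list medians, and the dotted line is the median of all genes at 0.18. All 18 E2F targets are filled and to the right of 0, with a median of 1.54.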

How the data were processed

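RNA of 9 lymphoma lines (10 arrays), 6 knockout and 7 wild-type spleens was measured, with an RNA integrity number above 8 per the labels. Agilent Feature Extraction 10.7.1.1 wrote the background-subtracted intensity of each spot in the deposited scanner output, per the file headers. The deposited value table holds log2 values of the same arrays, scaled and centred per probe by steps that are not given in the sources used here, and was tried as an alternative. Control spots, 1639 an array, were excluded, and 43379 remained. Over all arrays 1556 flagged spots were dropped, and 0 were saturated. Spots of a probe were averaged, scaled to the array's 75th percentile and taken to log2. Symbols came from RefSeq accessions (GRCm38.p6): 26690 of 41174 probes matched, giving 18217 genes. The probe with the highest mean represented a gene, tested if well above background in at least 6 of 22 samples.

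One limma fit (3.58.1, R 4.3.3) covered the 3 groups and another the genotypes in the 13 spleens alone with a term for sex, with Benjamini-Hochberg adjustment over all tested genes and a threshold of 0.05. Fits were tested on simulated data. The members, the lists and the rule for named genes (up to 3 called genes per list and direction with the largest difference) were chosen with earlier results of these data known. The files hold no mean signal, so normexp (offset 50) used the median signal. The number of arrays limits the precision, and between 54.9% and 67.7% of the non-control spots of an array were well above background. A few genes that the rule for named genes would name are not reported here.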

Additional observations from a re-analysis of the deposited data

Results flagged for a closer look

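In each of 27 sets (9 genes in 3 groups) the sample farthest from the others was compared with Dixon's critical value, which chance passes in about 1 of 20 sets, and 2 stood out. Cdk6 in knockout spleen 4 was at -3.318, against -2.654 in the next lowest knockout spleen, a gap of 0.683 of the range of that group (critical value 0.625 for 6 samples). Rb1 in lymphoma line 8 was at 3.341, against 2.798 in the next highest line, a gap of 0.553 of the range (critical value 0.493 for 9 samples). The 2 arrays averaged for that line were at 3.58 for the repeat and 3.10 for the other.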

How the results depend on the processing

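No paired analysis was possible because the labels name lines and animals by their own numbers and the groups share no replicate number to pair them by, so slide was the block tried. Of the 234 values of the 9 genes recomputed for lymphoma lines against knockout spleens, 229 kept their sign and their side of the threshold, of 243 against wild-type spleens 235, and of 207 between genotypes 195. Median centring moved the median of all genes to 0.77 and 0.71 in the lymphoma comparisons, with 76.5% and 75.2% of calls higher, against 59% and 56.7% as reported. It left 2598 and 2735 genes lower, against 3965 and 4239 as reported, and turned Cdkn1b to 0.24 and 0.25, Rb1 to 0.39 against knockout spleens, Cul4a to 0.04 and Ets2 to 0.12. The count of the 9 genes lower against knockout spleens was 1, Rb1, with quantile normalisation and without lines 5 and 8 (added after seeing the data), and 0 to 1 when single samples were left out. Against wild-type spleens Rb1 turned to -0.22 with quantile normalisation, -0.23 with the mean of its probes, -0.05 without lines 5 and 8 and -0.02 without line 8, with -0.02 to 0.11 over single samples left out. Between genotypes the count of genes higher, 228 as reported, was 146 with slide as a fixed block, 356 with slide as a random block, 739 without the sex term, and 74 to 354 with single samples left out. The count lower, 297 as reported, was 163 with median centring, 111 and 457 with slide as a fixed or random block, 177 in females alone, 694 without the sex term, and 50 to 425 with single samples left out, the lowest of both without wild-type spleen 6. Calls higher were 34.7% of all calls after normexp and 43.4% as reported. The count of the 9 genes higher was 0 to 1 with single samples left out, the 1 being Cdkn1b without wild-type spleen 5. Ccnd2 turned to 0.10 with the mean of its probes, 0.05 and 0.01 with slide as a fixed or random block, 0.18 without the sex term, 0.06 without wild-type spleen 5 and 0.01 without knockout spleen 3, with -0.12 to 0.06 over single samples left out. Cdkn2a, whose values in both genotypes are of background signal, turned to -0.17 after normexp and -0.10 without wild-type spleen 7, and Rb1 to -0.04 with the mean of its probes, -0.02 without wild-type spleen 6 and -0.01 without knockout spleen 4. The causes were not tested. Signal over background limits Cdkn2a in spleens and the second probes of Cdk6 and Rb1.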
